A study of Gallus gallus with 6 samples.

Results

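Genes for chemokines, cytokines, their receptors and leukocyte surface proteins were followed across growing feathers of 3 body regions of the adult chicken. They were chosen by name, with earlier results of these data known. The rule took entries whose gene name begins with CXCL, CCL, CXCR, CCR, IL, IRF, TLR, CD, CSF or AvBD and a digit, or with TNF or IFN, together with PTPRC. Of 149 such genes, 19 were among the 6534 entries of one deposited table, 142 among the 6534 genes of the other, and 12 in both. Another 2 matching entries, in which CSF3R and IL1R2 share a value with neighbouring genes, were left out, and no entry carries an AvBD name.

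The libraries came from wing contour feathers, leg feathers and neck feathers in their growth phase, plucked from untreated adult wild-type birds of Gallus gallus, strain domesticus. The labels describe epithelium of the branching zone, pooled from 5 feathers after the pulp had been discarded, whereas the methods of the study name whole follicles or dissected dermal papilla and pulp. Each region has 2 labelled replicates, the first in one table and the second in the other, so that each table holds 1 library per region and differences between regions within it have no replicate error. The first table gives whole numbers of unstated unit. The second gives FPKM, fragments normalised for transcript length and library size. The FPKM columns are headed by 1 chicken number each, and no number recurs, so region and bird cannot be told apart there if these numbers stand for birds. The labels do not say whether the 2 tables came from separate RNA.

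Chemokines are small secreted proteins that guide migrating cells through receptors with 7 membrane-spanning helices. Interferons and many, but not all, interleukins signal through JAK kinases and STAT factors. TNF family ligands and Toll-like receptors act largely through NF-kB. In skin these genes are used by resident and passing leukocytes, but many are also made by keratinocytes, fibroblasts and vessels. CXCL14 is a chemokine made by epithelia, CXCL12 is a product of stromal cells, and several proteins with a CD number, such as the tetraspanins CD9 and CD81, are found on most cell types. In RNA from bulk tissue, fewer cells of a type and less RNA per cell cannot be told apart.

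Epithelial markers differed by less than 2-fold between regions except for some keratins. Of 12 on the list, 9 were in the second table, of which 6 had a mean of at least 1 FPKM and 2, KRT5 and KRT75, were at 0. Of the 6, KRT14 (972 FPKM in wing, 281 in leg and 275 in neck) and KRT15 (526 in wing, 133 in leg and 119 in neck) were more than 2-fold higher in wing. KRT19 did not exceed 0.845. EPCAM, an epithelial adhesion protein, had 932 FPKM in wing, 688 in leg and 872 in neck. KRT5, a keratin of basal keratinocytes, was at 0 for every region in FPKM although the first table gave it 519 in wing, 244 in leg and 307 in neck, so an FPKM of 0 is reported below only as listed at 0. In the first table KRT5 alone of 6 listed markers was past 2-fold, for wing over leg at a log2 difference of 1.09. In all, 765 genes of the second table were at 0 throughout, and no entry of the first table had a mean below 9.67, so the genes outside it are not read as unexpressed. A difference between regions is called here when it reached 2-fold on value + 1 within a table, for entries with a mean of at least 1. Over all such entries the median log2 difference was -0.08 for wing over neck, -0.31 for leg over neck and 0.23 for wing over leg in the first table, and 0.39, -0.03 and 0.44 in the second.

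CXCL14 had the largest excess of wing over each other region in the group, in both tables. The first table, which places it on chromosome 13 from 15407660 to 15414929 without naming an assembly, gave 114 in wing, 1 in leg and 3 in neck. The second gave 229 FPKM in wing, 3.0 in leg and 5.20 in neck. The high library was wing in each table, and leg and neck were both low. No entry of the first table had a mean below 9.67, so CXCL14 could be listed there only through its wing value. Its wing excess in that table was therefore bound to its being listed. Wing over neck gave a log2 difference of 4.85 on the first table's values and 5.21 on FPKM, and wing over leg gave 5.85 on both. Among 4736 genes of the second table with a mean FPKM of at least 1, CXCL14 ranked 1 for wing over leg and 2 for wing over neck. Leg lay below neck in each table, by a log2 difference of -0.63 in FPKM and of -1.0 in the first table, where it rests on values of 1 and 3.

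The other 11 genes with values in both tables were compared region by region. Wing over neck had the same sign in both tables for 10 of the 12 genes, leg over neck for 9 and wing over leg for 10. The share with the same sign over all genes listed in both was not counted, so these counts have no background. Differences of 2-fold the same way in both tables were found for 2 of the 12 in wing over neck (CXCL14 and CD74), against 3.97% of 2139 genes listed in both. For leg over neck there was 1 of the 12 (CD74), against 1.12%, and for wing over leg 2 of the 12 (CXCL14 and CD81), against 7.11%. CXCL14 was in the first table only through its wing value, so its part in these counts is not independent of its being listed.

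CD74, the invariant chain that accompanies MHC class II molecules in antigen-presenting cells, was low in neck in both tables. Its values were 47 in wing, 59 in leg and 19 in neck in the first table. Its FPKM was 96.4 in wing, 88.0 in leg and 22.4 in neck in the second. Wing and leg were close to each other and changed order between the tables. Over neck, wing differed by a log2 of 1.26 and leg by 1.58 in the first table, and wing by 2.06 and leg by 1.93 in FPKM.

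CD81, a tetraspanin, was instead high in wing alone, with values of 73 in wing, 34 in leg and 38 in neck and an FPKM of 184, 84.1 and 81.2 in the same order. Wing over leg reached a log2 difference of 1.08 on the first table's values and 1.12 on FPKM, but 0.86 and 0.71 after each library was centred on its median. CD47, the "do not eat me" ligand of phagocyte receptors, had 51 in wing, 30 in leg and 41 in neck, and 140 FPKM in wing, 80.0 in leg and 90.7 in neck. TNFAIP8, a regulator of cell death induced by TNF, had 25 in wing, 13 in leg and 17 in neck, and 60.0 FPKM in wing, 30.2 in leg and 33.9 in neck. CD47 and TNFAIP8 were thus highest in wing and lowest in leg in both tables, by less than 2-fold between any pair of regions.

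The remaining shared genes differed by less than 2-fold between regions. CD9, another tetraspanin, had 156 in wing, 218 in leg and 240 in neck, and 389 FPKM in wing, 404 in leg and 429 in neck. TNFRSF19 (TROY), a TNF receptor family member known from hair follicle epithelium in mice, had 81 in wing, 47 in leg and 81 in neck, and 199 FPKM in wing, 107 in leg and 140 in neck. Leg was thus its lowest region in both tables. The death ligand TNFSF10 (TRAIL) had 22 in wing, 20 in leg and 17 in neck, and 51.7 FPKM in wing, 39.9 in leg and 30.1 in neck. TNFSF10 was thus ordered wing, leg, neck in both tables. IL6ST (gp130, the shared signalling chain of the IL-6 family) had 9 in wing, 10 in leg and 11 in neck, and 22 FPKM in wing, 26.4 in leg and 23.4 in neck. IRF2, which competes with IRF1 for the same DNA sites, had 12 in wing, 10 in leg and 13 in neck, and 26.7 FPKM in wing, 19.8 in leg and 21.6 in neck. IL6ST was thus lowest in wing and IRF2 lowest in leg in both tables, by small margins. TNFAIP8L1, a relative of TNFAIP8, had 12 in wing, 14 in leg and 11 in neck, and 25.9 FPKM in wing, 21.9 in leg and 16.0 in neck. IL10RB, the shared second chain of the IL-10 and lambda interferon receptors (listed as IL10R2 in the first table), had 17 in wing, 14 in leg and 16 in neck in that table.

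**Figure D1:**
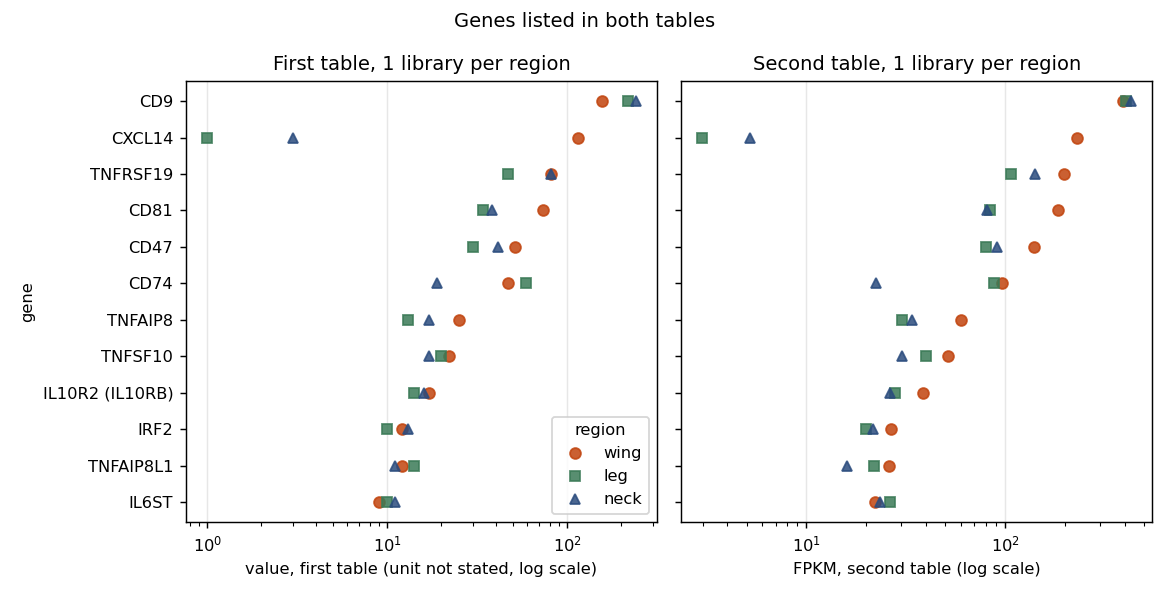
Values of the 12 genes listed in both tables, on log axes, in the unstated unit of the first table (left) and in FPKM (right), with 1 symbol per library for wing, leg and neck. CXCL14 lies at 114 and 229 in wing, and at 1 to 5.20 in leg and neck.

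A further 7 genes had values only in the first table. CD59, which protects cells from the complement membrane attack complex, had 116 in wing, 78 in leg and 91 in neck. IFNLR1, the receptor chain specific to lambda interferons, had 11 in wing, 20 in leg and 21 in neck. IL1RAP, the shared accessory chain of IL-1 family receptors, had 7 in wing, 13 in leg and 15 in neck. IFNLR1 and IL1RAP were thus both low in wing, and IL1RAP was exactly at the 2-fold threshold for wing over neck. IRF2BP2, IRF2BPL and CD2AP, which encode partners of other proteins and are included for their names, ranged from 14 to 38. For wing over neck, 2 of the 19 genes were called higher (CXCL14 and CD74) and 1 lower (IL1RAP), against 5.45% and 7.85% of the 6534 entries. For leg over neck, CD74 was higher and CXCL14 lower, against 1.79% and 4.38%. For wing over leg, CXCL14 and CD81 were higher and none lower, against 10.7% and 4.79%. Each of these counts is 0, 1 or 2 of 19 genes, and none was tested against its background. CXCL14, listed in the first table only through its wing value, is among the genes counted as higher in wing.

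In the second table, 125 of the 142 genes had a value and 17 were listed at 0 in all 3 libraries, against 5769 and 765 of all 6534 genes. At least 1 FPKM was reached in every library by 54 of the 142 and in any library by 83, against 4432 and 4913 of all 6534 genes. The 17 genes of the group at 0 were 11 interleukins (IL1B, IL2, IL3, IL4, IL5, IL6, IL10, IL13, IL17A, IL21 and IL22), the interferons IFNG and IFNL3, the growth factors CSF1 and CSF2, the receptor CCR9 and the activation antigen CD69. Most of them encode secreted cytokines, whereas every listed interleukin receptor, interferon receptor and Toll-like receptor had a value. The 12 genes under GAL names that RefSeq (GRCg7b) lists as older names of avian beta-defensins did not exceed 0.403 FPKM, and 6 of them were at 0 throughout.

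By direction, the FPKM of the group was often lowest in neck. Neck was the lowest region for 85 of the 125 genes with a value (68.0%), against 38.4% of all genes with a value. Among those with a mean of at least 1 FPKM it was lowest for 45 of 73 (61.6%), against 38.1% of all such genes. Neck also had the most genes listed at 0, with 1143, against 1022 in leg and 941 in wing. How far this bears on genes of low level was not tested. Leg exceeded neck for 100 of the 125 (80.0%), against 46.6% of all genes. Wing exceeded neck for 101 of them (80.8%), a share close to the 79.4% of all genes. By direction alone, leg relative to neck thus departed more from the share over all genes than wing relative to neck, for which most genes of the table already lay above neck. No test was made of these shares, since each rests on 1 library per region.

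By size, 73 of the genes had a mean of at least 1 FPKM. In wing over neck 30 of the 73 (41.1%) were called higher and 1 lower, against 15.1% and 1.82% of 4736 genes, and their median log2 difference was 0.79, against 0.39 over all genes. Of the 30, TNFAIP6 and IL13RA2 were listed at 0 in neck. In leg over neck 4 were higher and 0 lower, against 2.93% and 0.823%, and the median was 0.27, against -0.03. In wing over leg 17 were higher and 3 lower, against 14.8% and 2.17%, with a median of 0.52, against 0.44. Centring each library on its median removed the general shift towards wing and left 14 higher and 3 lower for wing over neck (7.83% and 4.01% of all genes), 5 higher and 0 lower for leg over neck (3.04% and 0.802%), and 7 higher and 7 lower for wing over leg (6.04% and 4.67%). The 14 were CD276, CD38, CD4, CD74, CD93, CD99, CXCL12, CXCL14, CXCR7, IL11RA, IL13RA2, IL15, TNFAIP6 and TNFRSF11B, and the 7 higher in wing than in leg were CD276, CD86, CXCL14, CXCR7, IL12RB2, IL17RD and TNFAIP6. Other genes of the group called higher in wing were under 2-fold for that pair after centring. The 3 lower in wing than in neck after centring were CCR7, IL10RA and TNFSF15. The 7 lower in wing than in leg were CCR7, CD3D, the entry named CD80, IFNGR1, IL10RA, TNFRSF8 and TNFSF15. In the first table centring left 2 higher and 0 lower for wing over neck (5.74% and 6.9%), 1 higher and 0 lower for leg over neck (2.31% and 2.82%), and 1 higher and 2 lower for wing over leg (7.1% and 6.87%). A gene that passed the minimum mean only through its high value in 1 region had to differ, so these counts are a description. For wing over neck this includes CCR2, CXCR4, the entry named CD93, TLR7, TNFAIP6 and IL13RA2, which passed only through their wing values. The entry named CD93, TNFAIP6 and IL13RA2 are also among the 14 left by centring. For leg over neck TNFRSF8 passed only through its leg value, and CD200R1 only through its wing and leg values together.

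**Figure D2:**
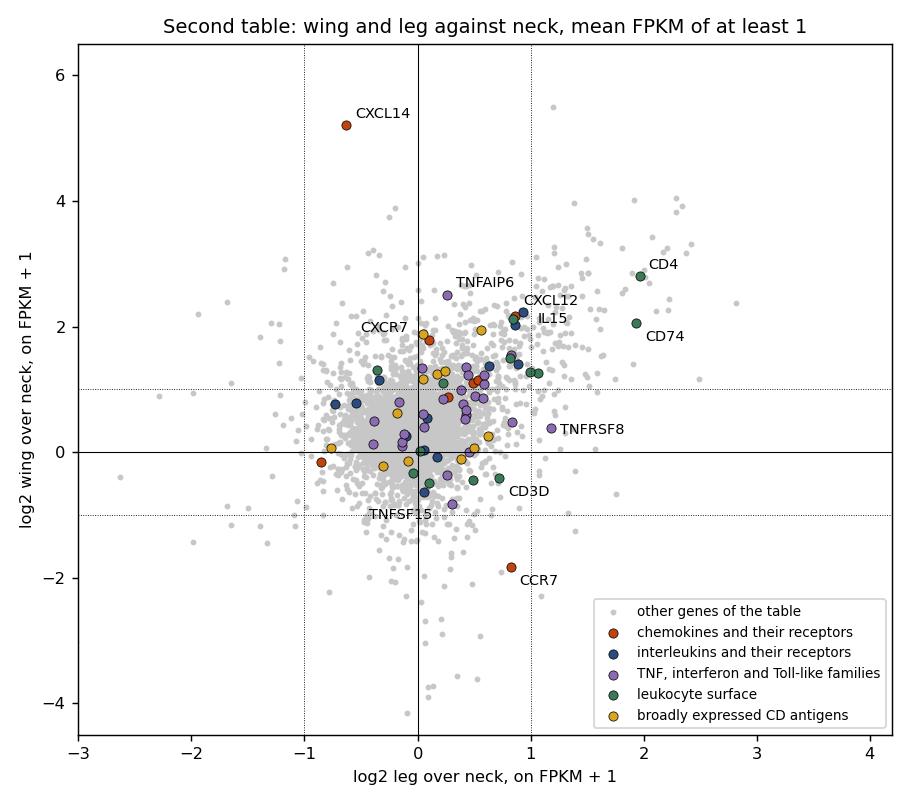
Log2 differences of wing over neck (vertical) and leg over neck (horizontal) on FPKM + 1 for genes of the second table with a mean FPKM of at least 1, with the chemokine, cytokine and leukocyte genes coloured by family and other genes in grey. Dotted lines mark 2-fold, 9 genes lie outside the axes, and CXCL14 stands at 5.21 on the vertical axis and -0.63 on the horizontal one.

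Among chemokines in the second table only CXCL14 and CXCL12 exceeded 2 FPKM in any library. CXCL12, which retains stem cells and leukocytes near stroma, had 23.5 FPKM in wing, 8.90 in leg and 4.46 in neck, a log2 difference of 2.16 for wing over neck and 0.86 for leg over neck. CXCR7 (ACKR3), a receptor that takes up CXCL12, was much higher than the signalling receptor CXCR4 in every region. CXCR7 had 187 FPKM in wing, 57.4 in leg and 53.4 in neck. CXCR4 had 2.17 in wing, 1.07 in leg and 0.426 in neck. The ligand and both receptors were thus highest in wing and lowest in neck, although leg and neck were close for CXCR7. Of all genes with a value, 73.1% were highest in wing and 38.4% lowest in neck. After centring, the log2 difference for wing over neck was 1.78 for CXCL12, 1.41 for CXCR7 and 0.77 for CXCR4.

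CCR7, the receptor by which dendritic cells and T cells home to lymphoid tissue, ran the other way. It had 2.97 FPKM in wing, 23.9 in leg and 13.1 in neck, with log2 differences of -1.83 for wing over neck and -2.65 for wing over leg. It was the only gene of the group called lower in wing than in neck in this table before centring. Its ligand CCL19 had 0.652 FPKM in wing, 0.186 in leg and 0.150 in neck and so did not share this order.

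The other chemokines and receptors were near or below 2 FPKM. CCR2, carried by monocytes, had 2.2 FPKM in wing, 1.09 in leg and 0.489 in neck. CCL20 had 1.53 in wing, 0.502 in leg and 0.321 in neck, and its receptor CCR6 had 0.893 in wing, 0.155 in leg and 0.0867 in neck. All 3 were ordered wing, leg, neck from high to low. CCL5, a T cell chemokine, had 1.51 FPKM in wing, 0.553 in leg and 1.81 in neck, and CCL1 had 0.225 in wing and 1.96 in leg and was listed at 0 in neck. IL8L1 and IL8L2, the chicken CXCL8-like genes, did not exceed 0.130 FPKM.

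**Figure D3:**
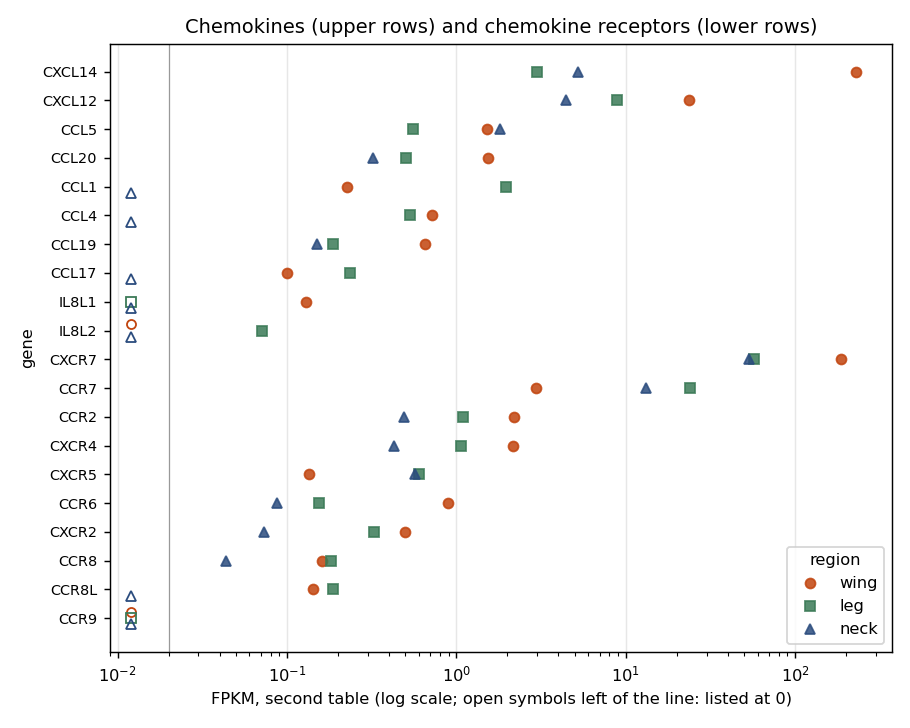
FPKM in the second table of 10 chemokines and 10 chemokine receptors, on a log axis, with 1 symbol per region and open symbols for values listed at 0. CXCL14, CXCL12 and CXCR7 are highest in wing, and CCR7 is lowest there at 2.97.

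Of 19 interleukins only IL15 had a mean of at least 1 FPKM. IL15, which sustains natural killer and memory T cells and is made by many non-immune cells, had 10.4 FPKM in wing, 3.66 in leg and 1.44 in neck, a log2 difference of 2.23 for wing over neck. IL16 and IL18 were lower and in the same order, with 1.90 and 1.45 in wing, 0.757 and 0.528 in leg, and 0.287 and 0.191 in neck. IL2RG, the common gamma chain used by the IL-15 receptor, had 5.48 FPKM in wing, 2.90 in leg and 1.52 in neck. IL15 and IL2RG were thus ordered alike.

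The 15 interleukin receptors of the second table fell into even and uneven ones. IL10RB had 38.7 FPKM in wing, 27.8 in leg and 26.2 in neck, and IL1R1, the signalling receptor of IL-1, had 12.7, 13.0 and 12.4 in the same order. IL18R1 had 17.9 in wing, 13.7 in leg and 14.8 in neck. These 3 differed by less than 2-fold between regions, and IL1R1 was nearly level. IL11RA had 11.2 in wing, 7.61 in leg and 3.64 in neck. IL17RD (Sef), which restrains FGF receptor signalling, had 11.1 in wing, 3.30 in leg and 4.45 in neck. IL1RL1, the IL-33 receptor, had 10.8 in wing, 3.68 in leg and 5.82 in neck, and IL12RB2, a chain of the IL-12 receptor, had 3.91 in wing, 0.737 in leg and 1.88 in neck. IL17RD, IL1RL1 and IL12RB2 thus had their lowest value in leg and were called higher in wing than in leg, with log2 differences of 1.5, 1.33 and 1.5, of which that of IL1RL1 was 0.92 after centring. IL13RA2, a decoy receptor for IL-13, had 3.06 FPKM in wing and 0.817 in leg and was listed at 0 in neck. Of the 11 receptors with a mean of at least 1 FPKM, 4 were called higher in wing than in neck (IL11RA, IL13RA2, IL17RD and IL2RG), against 15.1% of all genes. In wing over leg 4 were called higher (IL12RB2, IL13RA2, IL17RD and IL1RL1), against 14.8%. After centring IL11RA and IL13RA2 stayed past 2-fold for wing over neck, and IL12RB2 and IL17RD for wing over leg.

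In the TNF family, 9 of 11 receptors had a mean of at least 1 FPKM, and of the 6 ligands TNFSF10 and TNFSF15 had one. TNFRSF19 was the highest of 11 receptors, and next came TNFRSF1A, the main receptor for TNF, with 28.8 FPKM in wing, 14.6 in leg and 10.6 in neck. TNFRSF11B (osteoprotegerin, a decoy for RANKL) had 22.6 in wing, 13.3 in leg and 7.10 in neck, while RANKL itself, listed as TNFSF11, had 0.0675 in wing and 0.112 in leg and was at 0 in neck. CD40, a receptor of B cells, dendritic cells and some epithelia, had 18.8 in wing, 13.1 in leg and 8.39 in neck. These 3 of the 9 receptors were called higher in wing than in neck, against 15.1% of all genes. Their log2 differences were 1.36, 1.54 and 1.08. After centring TNFRSF11B alone of these stayed past 2-fold, at 1.16, with TNFRSF1A at 0.97 and CD40 at 0.70. TNFSF15 (TL1A) had 4.57 FPKM in wing, 11.2 in leg and 8.87 in neck, and was with CCR7 and CD3D 1 of the 3 genes called lower in wing than in leg. CCR7, CD3D and TNFSF15 thus shared an order in which leg was highest and wing lowest. TNFRSF8 (CD30), a receptor of activated lymphocytes, had 1.01 in wing, 2.50 in leg and 0.548 in neck, a log2 difference of 1.18 for leg over neck. TNFAIP6 (TSG-6), a hyaluronan-binding protein secreted in inflammation, had 4.69 in wing and 0.195 in leg and was listed at 0 in neck.

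Interferon receptors were present at higher levels than interferons. IFNGR2 had 65.1 FPKM in wing, 50.9 in leg and 49.0 in neck, and IFNGR1 had 28.2 in wing, 43.8 in leg and 36.5 in neck, so that the 2 chains of the interferon gamma receptor differed in their highest region. IFNAR1, a chain of the type I receptor, had 14.3 in wing, 7.85 in leg and 5.51 in neck, whereas its partner IFNAR2 was nearly level at 24.8, 19.9 and 22 in the same order. IFNA3 and IFNB, the type I interferons with a value, did not exceed 0.436 FPKM, and IFNA3 belongs to a family of near-identical genes whose reads may be shared. Of 7 interferon regulatory factors, 6 were lowest in neck, against 38.4% of all genes with a value. Among the 5 with a mean of at least 1 FPKM, 4 were lowest in neck. IRF8, a factor of myeloid and B cells, had 8.77 in wing, 8.12 in leg and 5.81 in neck, and IRF1 had 5.47 in wing, 7.30 in leg and 3.66 in neck.

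All 10 Toll-like receptors, which recognise microbial products, were lowest in neck, against 38.4% of all genes with a value. Of these receptors 8 were highest in wing, as were 73.1% of all genes with a value. Their levels were low, with means over the 3 libraries of 0.347 to 1.95 FPKM. Of the 10, only 4 had a mean of at least 1 FPKM, and all 4 were lowest in neck. TLR7, a receptor for single-stranded RNA, had 2.57 FPKM in wing, 0.454 in leg and 0.412 in neck. TLR4, the lipopolysaccharide receptor, had 1.21 in wing, 1.15 in leg and 0.338 in neck. TLR5, the flagellin receptor, had 1.62 in wing, 0.697 in leg and 0.169 in neck. TLR4 was nearly equal in wing and leg, while TLR7 was low in leg as well as neck. TLR15, described in birds and reptiles, had 0.451 in wing, 0.936 in leg and 0.250 in neck. Reads of the paired copies TLR1LA and TLR1LB, and of TLR2-1 and TLR2-2, may have been shared.

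Leukocyte surface genes were mostly lowest in neck, 16 of the 23 with a value (69.6%), against 68.0% of the group and 38.4% of all genes. Leg exceeded neck for 20 of the 23 (87.0%), against 80.0% of the group and 46.6% of all genes. Of the 23, 13 had a mean of at least 1 FPKM, and 8 of these 13 were lowest in neck. PTPRC (CD45), which is carried by all leukocytes, had 3.70 FPKM in wing, 2.87 in leg and 0.940 in neck, log2 differences over neck of 1.28 for wing and 1.0, just under the threshold, for leg. CD4, the co-receptor of helper T cells, had 8.65 in wing, 4.37 in leg and 0.377 in neck, log2 differences over neck of 2.81 for wing and 1.96 for leg. CD200R1, an inhibitory receptor of myeloid cells, had 1.99 in wing, 1.60 in leg and 0.244 in neck. CD4, CD74, CD200R1 and TNFRSF8 were the 4 genes called higher in leg than in neck. CD38, an ectoenzyme of activated lymphocytes, had 6.53 in wing, 2.12 in leg and 0.737 in neck, and the entry named CD93, which RefSeq now lists as CD248, had 2.47 in wing, 1.17 in leg and 0.231 in neck. CD86, a costimulator on antigen-presenting cells, had 9.61 in wing, 2.33 in leg and 3.27 in neck, and the entry named CD80, which RefSeq now lists as CD88, had 0.815 in wing, 2.47 in leg and 1.47 in neck. The identity of the entries named CD93 and CD80 is therefore in doubt. RefSeq also gives other names for CD300A (CD300LG), CD300L-S1 (KRABZFP) and CD8B (CD8BP). All of these entries are in the counts of leukocyte surface genes, and CD93, CD300A and CD300L-S1 are among those lowest in neck. CD86 was highest in wing and the entry named CD80 lowest there.

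CD3D and CD3E, subunits of the T cell receptor complex, differed in order from CD4 and PTPRC. CD3D had 9.89 FPKM in wing, 23.0 in leg and 13.5 in neck, and CD3E had 11.0 in wing, 13.7 in leg and 14.1 in neck. In each region their FPKM exceeded that of PTPRC, and wing was their lowest region. CD247, the zeta chain of the same receptor, had 10.9 in wing, 5.47 in leg and 4.55 in neck and so had the order of CD4 and PTPRC. The other T cell genes were lower, with CD8A at 0.375 in wing, 0.384 in leg and 0 in neck, CD8B between 0.321 and 0.475, CD28 at no more than 0.572 and CD5 at no more than 0.975 FPKM.

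**Figure D4:**
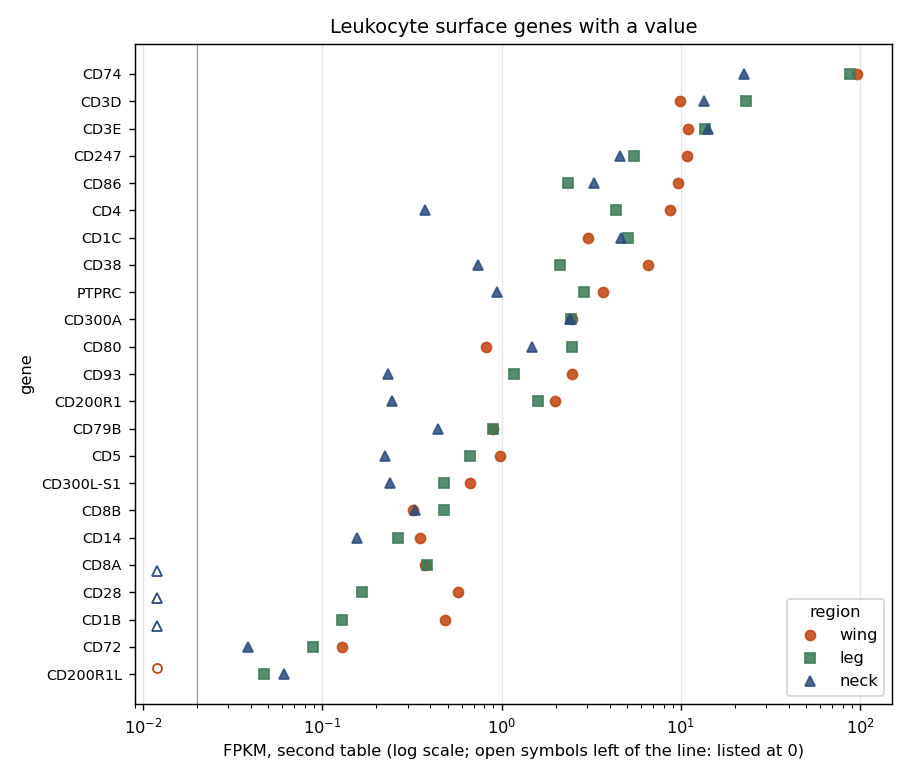
FPKM in the second table of the 23 leukocyte surface genes with a value, on a log axis, with 1 symbol per region and open symbols for values listed at 0. CD4 reaches 8.65 in wing and 4.37 in leg against 0.377 in neck, whereas CD3D and CD3E are lowest in wing.

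CD antigens of broad expression included the most abundant genes of the group. CD24, a mucin-like adhesion protein of epithelia, had 643 FPKM in wing, 363 in leg and 616 in neck, and ranked 158 among 6534 genes by its mean. CD44, the hyaluronan receptor, had 136 in wing, 190 in leg and 146 in neck. CD36, a fatty acid transporter and scavenger receptor, had 70.8 in wing, 66.5 in leg and 82.3 in neck. These 3 differed by less than 2-fold between regions. CD276 (B7-H3), a B7 family member of epithelial and stromal cells, had 38.9 in wing, 10.2 in leg and 9.79 in neck. CD99, an adhesion protein, had 40.4 in wing, 14.9 in leg and 9.79 in neck. The tetraspanin CD151 had 33 in wing, 15.2 in leg and 13.3 in neck, and CD320, the transcobalamin receptor, had 32.7 in wing, 15.2 in leg and 12.7 in neck. With CD81, these were the 5 of 12 broadly expressed antigens called higher in wing than in neck, and all 5 were also called higher in wing than in leg, against 15.1% and 14.8% of all genes. After centring, CD276 alone stayed past 2-fold for both pairs and CD99 for wing over neck.

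**Figure D5:**
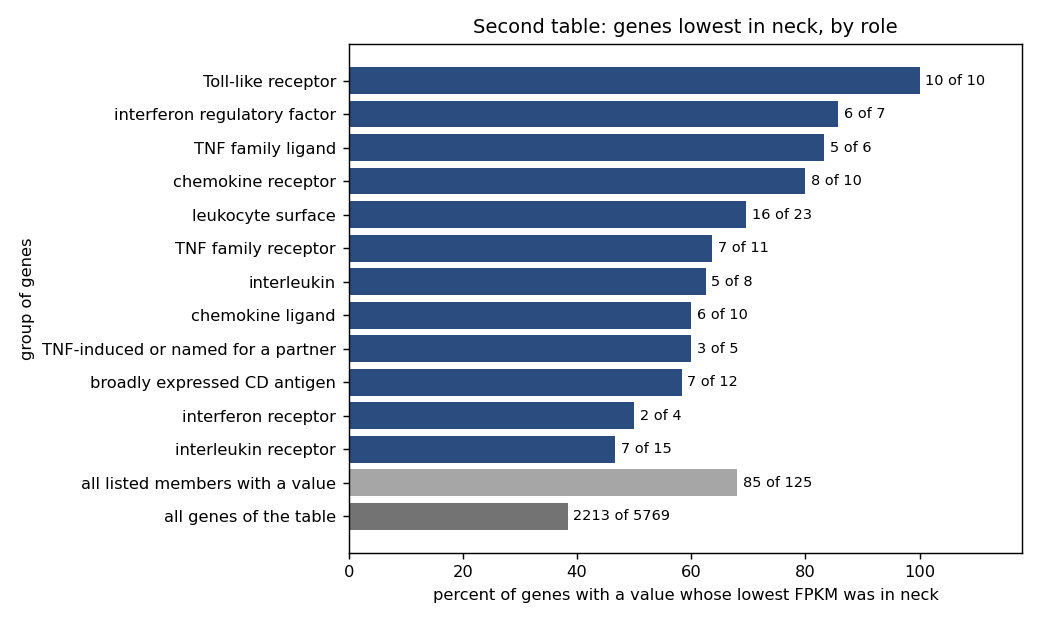
Share of genes in the second table whose lowest FPKM was in neck, by role, for genes with a value in at least 1 library, with counts beside the bars. All genes of the table stand at 38.4% (dark grey), all genes of the group at 68.0% (light grey) and Toll-like receptors at 10 of 10.

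Markers of other cells differed between the regions. Of 20 leukocyte markers outside the group, 11 were listed in the second table, none at 0. All 11 were higher in leg than in neck, against 46.6% of all genes with a value. Wing exceeded neck for 10 of the 11, against 79.4% of all genes with a value. Their summed FPKM was 96.6 in wing, 86.5 in leg and 49.2 in neck. LYZ (lysozyme) had 15.8 in wing, 7.49 in leg and 1.83 in neck, and LCP1, an actin bundler of leukocytes, had 9.47 in wing, 6.66 in leg and 2.36 in neck. The exception was BLNK, a B cell adaptor, with 13.1 in wing, 37.8 in leg and 25.9 in neck. Mesenchyme markers summed to 1380 FPKM in wing, 729 in leg and 361 in neck over 14 of 17 genes listed. All 14 were higher in wing and in leg than in neck, against 79.4% and 46.6% of all genes with a value. Of the same list, 6 markers in the first table summed to 471 in wing, 273 in leg and 168 in neck, with VIM as the exception at 62, 69 and 75. Blood and endothelium markers, 8 of 15 listed with HBE1 at 0, summed to 77.8 in wing, 23.4 in leg and 9.87 in neck, and melanocyte markers, 6 of 8 listed with PMEL at 0, to 352 in wing, 109 in leg and 138 in neck. TYRP1, a melanin enzyme, ran against that melanocyte sum with 0.203 in wing, 20.2 in leg and 13.7 in neck. The part of these cells in the values of the chemokine, cytokine and leukocyte genes was not tested.

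Signalling genes downstream of these receptors lie outside the name rule. Of a list of 34, 22 were in the second table and 19 had a mean of at least 1 FPKM. Of the 19, 6 were called higher in wing than in neck and 0 lower, 0 were called in leg over neck, and 6 were called higher in wing than in leg, against 15.1%, 1.82%, 2.93% and 14.8% of all genes for wing higher than neck, wing lower than neck, leg higher than neck and wing higher than leg. These counts were taken without centring. The median log2 difference of the 19 was 0.53 for wing over neck and 0.47 for wing over leg, against 0.39 and 0.44 over all genes. The called genes included SOCS2, a feedback inhibitor of JAK signalling, with 51.8 FPKM in wing, 11.5 in leg and 14.3 in neck. The first table gave SOCS2 26 in wing, 5 in leg and 10 in neck. STAT3, the transcription factor used by IL-6 family cytokines, had 39.1 FPKM in wing, 18.8 in leg and 16.5 in neck, against 17, 11 and 11 in the first table in the same order. Its log2 difference in FPKM, without centring, was 1.20 for wing over neck and 1.01 for wing over leg. The first table listed 9 of the 34, of which SOCS2 alone was called, in wing over neck and in wing over leg. JAK3 and RELA were listed at 0 throughout the second table, although the first gave RELA 11 in wing, 11 in leg and 13 in neck.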

How the data were processed

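RNA-seq values of 6 libraries were read from 2 tables and assigned to regions by the labels. In the first table the authors deposited whole-number scores with loci, of unstated unit. They were not treated as read counts, and their median ratio to FPKM, 0.451 over 2137 shared genes, was 0.558 for the quartile of shortest loci and 0.429 for the longest. In the second the authors deposited FPKM. Per the labels TopHat2 2.1.0 and Cufflinks 2.2.1 were used with galGal4. The paper also names that assembly, yet 46 loci of the first table lie on chromosome 33. In the second, 101 rows without values and the authors' mean were left out, and 8 genes of the group, among them PTPRC, have values with more than 6 decimals, as do 480 genes in all. The origin of these is not given in the sources used here.

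Log2 differences were taken on value + 1 within a table, called at 2-fold for a mean of at least 1. The tables were normalised separately and hold 1 library per region each, so no test was run, and depth is unknown. Levels are compared between genes in FPKM only. Older symbols were matched through RefSeq names of GRCg7b: 17 of 19 and 126 of 142 genes have a current symbol there. Values are given for genes in both tables, the largest differences, the highest means and members that account for a role. The members, roles and lists were chosen with earlier results of these data known. Alternatives were a pseudocount of 0.1, no minimum mean or 5, centring, rescaling to equal totals, other detection thresholds and each replicate left out. The calling step was tested on simulated data. Python 3.11.15, pandas 2.3.3, numpy 2.4.6 and matplotlib 3.10.9 were used. Values of some members and pathway genes are not reported here, although the counts include them.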

Additional observations from a re-analysis of the deposited data

How the results depend on the processing

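Except for centring, the share over all genes was not counted under the alternative settings. In FPKM, 31 of the 73 genes with a mean of at least 1 were past 2-fold for wing over neck, and 17 with centring. With a minimum mean of 5, which fewer genes reached, there were 19, so the smaller count is not read as lost calls. For leg over neck there were 4, against 18 with a pseudocount of 0.1 and 1 with a minimum mean of 5. Wing over leg gave 14 to 26 genes in all, against 20, but its 17 higher and 3 lower became 7 and 7 with centring and 23 and 1 with rescaling to equal totals. In the first table rescaling to equal totals gave 14 in place of 3 for wing over neck, 1 in place of 2 for leg over neck and 8 in place of 2 for wing over leg. That table's values sum to 1780292 in wing, 3051339 in leg and 4195932 in neck, so rescaling raised every wing value relative to leg and neck. The counts after rescaling have no background and are not read as a result about these genes. Centring in the first table gave 1 in place of 2 for leg over neck. Of the calls shared by both tables, centring left 1 in place of 2 for wing over leg. Without one of the replicates, which leaves a single table, leg over neck gave 1 to 2 genes in place of 1. Detection at 1 FPKM in all libraries held for 54 genes, at 0.1 for 95, at 5 for 34, and in any library for 83. Of the 62 called differences, none could change sign under another pseudocount, and centring shifted values too little to turn a 2-fold difference. For the genes in both tables the other table could have turned it, and none of their called differences changed sign. Centring brought 29 of the 62 under 2-fold. A fit across the tables with the replicate as block was not run, because the tables were normalised separately and the replicate number is the table. Apart from the arithmetic of rescaling, the cause of these shifts was not tested. Depth is unknown for all 6 libraries.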
